A study of Mus musculus with 6 samples.

Results

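The AT-rich regions described here are 1118 of the 22574 regions that a mouse promoter tiling array covers with at least 3 neighbouring probes. Each is an autosomal run of 3 to 14 probes whose starts lie at most 500 bp apart and whose mean probe length is 55 bp or more. Runs in 11 windows that hold olfactory receptor clusters were left out, and the rule used no measured signal. The arrays compared DNA of the hypothalamus, the brain region that governs feeding and energy balance, from 16 week old mouse offspring. In the inulin group, with 3 arrays, the dams had been given inulin, a fermentable plant fibre. The obesity group, also with 3 arrays, is labelled maternal obesity or maternal high fat diet. The inulin arrays carry a deposited name that joins the obesity abbreviation with inulin, and the labels do not spell out whether the inulin dams were obese as well. Strain, sex and litter are not in the labels used here, and arrays of 1 group may share litters, so each p-value below covers no more than the variation among these arrays.

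Methylated DNA immunoprecipitation (MeDIP) pulls down DNA fragments with an antibody against methylated cytosine, and its yield depends on how many methylated CpG sites a fragment holds. AT-rich sequence holds few CpG sites, so it is pulled down weakly whatever its methylation per site. Arrays of this kind use longer probes where the sequence is AT-rich, because base composition and length together set the melting temperature. In mouse, large tandem families such as olfactory, vomeronasal and taste receptors lie in AT-rich stretches of the genome.

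MeDIP DNA was labelled with Cy5 and input DNA of the same sample with Cy3, and values are the log2 ratio of MeDIP over input with each array centred on its median. Over all probes, 94.4% to 96.4% were well above background in the input channel and 77.3% to 85.7% in the MeDIP channel. All 3 inulin arrays share 1 scan time in the file headers, while the obesity arrays fall in 2 others. No scan holds both groups, so scan and maternal group cannot be told apart in any comparison below. The interquartile range of the log2 ratios over all probes was 1.37, 1.39 and 1.38 on the inulin arrays, against 1.62, 1.89 and 1.69 on the obesity arrays. The spread of ratios was therefore narrower on every inulin array. The main differences of the AT-rich regions are given below both as centred and with all arrays on an equal spread. The overlap of the groups, the short and long probes of the same regions and the profile along the regions are given as centred only.

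The 1118 regions hold 7534 probes, with a median of 7 probes over 1585 bp and spans of 455 to 3126 bp. The 60-bp probe, the longest on the array, made up 53.7% of their probes, against 9.20% of the probes in the other autosomal runs of 3 to 14 probes. In 20 of the regions every probe was 60 bp long. The label could be checked only indirectly, because no mm9 sequence was used here. Over 18 autosomes, the share of runs with a mean probe length of 55 bp or more, olfactory windows included, tracked the share of RefSeq promoters (GRCm38.p6) with at least 60% A and T (Pearson r = 0.89, Spearman rho = 0.89). Without the 2 chromosomes farthest from the median, r was 0.84. With only the 1118 regions counted, as a share of all runs of 3 to 14 probes, r was 0.41. That count left out the olfactory windows, but the runs it was divided by and the promoters did not. Both measures share the gene content of each chromosome. Among 32851 RefSeq promoters of 300 bases, the 3502 with at least 60% A and T held 0.571 CpG per 100 bases, and the others held 4.57. Vomeronasal type 1 receptor promoters had a median of 64% A and T (205 genes), and bitter taste receptor promoters had 63% (31 genes). Zinc finger protein promoters had 45.7% (338 genes) and homeobox promoters 42% (25 genes). These promoter values describe the reference, not the array's own regions.

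The regions lay on all autosomes, unevenly. Chromosome 6 held 151, which was 12.3% of its runs, chromosome 7 held 124 and chromosome 3 held 97, while chromosome 15 held 12, or 1.42% of its runs. Counted in windows of 2000000 bp, 432 windows held at least 1 of the regions and 247 regions were alone in theirs. The 24 windows with 10 or more held 359 of the regions together. The window with most was chr6:132000000-134000000, where 25 of the 32 runs were AT-rich. In chr17:20000000-22000000 the count was 23 of 36, in chr13:26000000-28000000 it was 21 of 25, in chr14:50000000-52000000 it was 21 of 56, and in chr6:56000000-58000000 it was 20 of 36.

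MeDIP signal was weak in the AT-rich regions of both groups. Their median log2 ratio was -1.02, -0.96 and -0.84 on the inulin arrays, against -1.15, -1.42 and -1.26 on the obesity arrays. All 3 inulin arrays sat above all 3 obesity arrays, with means of -0.94 ± 0.093 for inulin and -1.28 ± 0.14 for obesity (SD, n = 3 each). The other autosomal runs, by contrast, had array medians of 0.037, 0.019 and 0.008 for inulin, against 0.012, -0.006 and 0.007 for obesity. The 596 AT-rich runs inside the olfactory windows were as low, at -1.03, -0.95 and -0.78 in inulin and -1.18, -1.51 and -1.27 in obesity. Over the 6 arrays, the mean ratio of the 1118 regions ran from -3.18 to 0.47, with a median of -1.10 and quartiles of -1.59 and -0.64. Only 26 of them (2.33%) had a mean ratio above 0, against 50.9% of the other runs. Within the AT-rich regions, the correlation of mean ratio with probe length was -0.23, and with the input level it was -0.50. Over the other runs these were -0.60 and -0.11; regions share arrays and base composition, so both are descriptions.

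On average the 2 channels moved in opposite directions. The centred MeDIP signal of the AT-rich regions averaged -1.66 ± 0.054 for inulin and -1.77 ± 0.073 for obesity (median over regions, mean ± SD of n = 3 each). Input signal averaged -0.74 ± 0.17 for inulin and -0.54 ± 0.055 for obesity. On average the inulin arrays were thus lower in input as well as higher in MeDIP. The groups did not overlap in input. In MeDIP they did, with the third inulin array at -1.724 and the first obesity array at -1.719. The other autosomal runs averaged 0.20 for inulin and 0.15 for obesity in MeDIP. In input they averaged 0.14 for inulin and 0.084 for obesity. The third inulin array had the lowest input signal, and it also had the highest ratio.

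**Figure D1:**
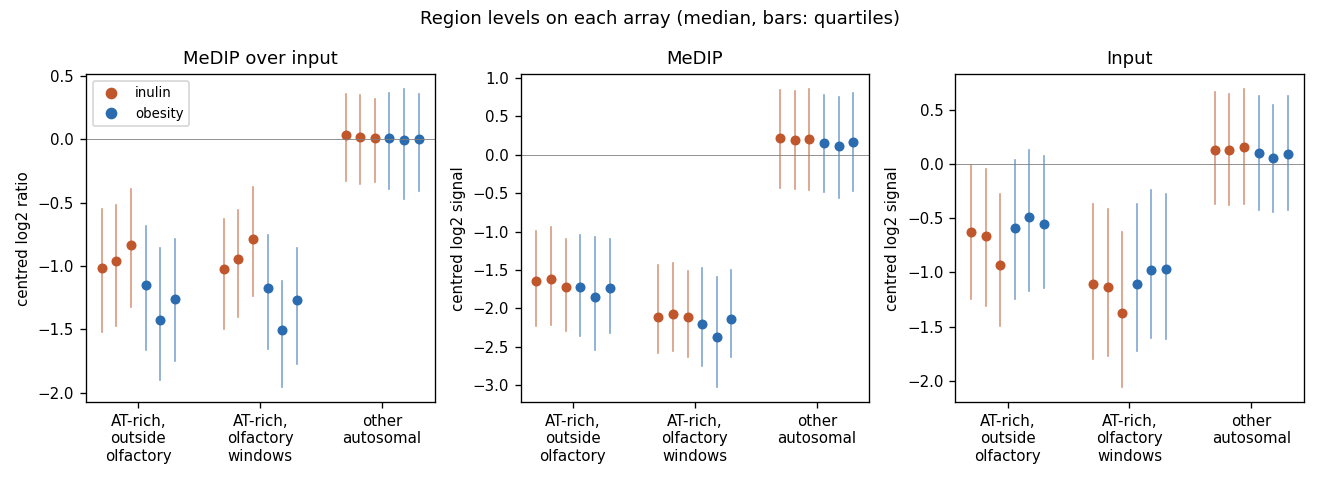
Median log2 ratio of MeDIP over input (left), centred log2 MeDIP signal (middle) and centred log2 input signal (right) on each of the 6 arrays, with bars for the quartiles over regions, for the 1118 AT-rich regions, the 596 AT-rich runs in olfactory windows and the 19237 other autosomal runs. In both AT-rich sets the inulin arrays lie above the obesity arrays in the ratio, while the other runs lie near 0 on all 6 arrays.

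Many AT-rich regions were near the limit of what the array measures. In the MeDIP channel, an average of 50.4% of their probes were well above background in inulin and 55.7% in obesity. In the input channel these shares were 89.4% for inulin and 91.7% for obesity. A region is called measured here where at least 50% of its spots in each group were well above background in both channels. By that rule 582 of the 1118 regions (52.1%) were measured, against 96.3% of the other autosomal runs and 35.9% of the AT-rich olfactory runs. For 18 regions no MeDIP spot was well above background on any inulin array, and for 3 none was on any obesity array, so their ratio there is only a bound. All MeDIP spots were well above background in 37 regions. The spread within a group was wider as well, with a median SD of 0.13 for inulin and 0.16 for obesity, against 0.073 for inulin and 0.11 for obesity over the other runs.

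Relative to obesity, the AT-rich regions were mostly higher in inulin offspring. By limma, adjusted over all 22574 regions with the Benjamini-Hochberg method at 0.05, 288 of them were higher in inulin and 3 were lower. That is 25.8% and 0.268%, against a background of 5.61% higher and 1.81% lower over all regions tested. At an unadjusted p under 0.05 the counts were 650 and 9, where 19% and 9.6% of all regions were counted. The median difference, inulin minus obesity, was 0.30 over the AT-rich regions and 0.033 over all regions, and 1058 of the 1118 regions (94.6%) had a positive difference, against 57.3% of all regions. In 615 regions all 3 inulin arrays lay above all 3 obesity arrays (55.01%, against 20.8% of all regions), and in 9 they lay below (0.805%, against 14.2%). The AT-rich runs in the olfactory windows had 184 higher and 0 lower of 596 (388 and 0 at an unadjusted p under 0.05), so the pattern was not shown to be particular to the regions outside those windows. Among measured regions 125 of 582 were higher and 1 was lower, with a median difference of 0.26, and among the 536 others 163 were higher and 2 lower, with a median of 0.34.

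The counts and the median difference depended on how the arrays were scaled. With all arrays set to an equal spread, 64 regions were higher and 45 lower, where the background was 2.31% and 2.13%, and the median difference was 0.035. With quantile normalization it was 45 higher and 9 lower, against 1.11% and 1.09% of all regions. With the authors' deposited table, of unstated scale, it was 21 higher and 13 lower, against 0.97% and 1.54%. Loess within arrays gave 332 higher and 4 lower (8.45% and 3.94% of all regions), and normexp background correction gave 281 and 1 (4.55% and 3.96%). Restricted to probes with input well above background on all arrays, 181 of 1117 regions were higher and 4 lower, where the background was 4.11% and 1.42%. With both channels well above background on all arrays, 105 of 1066 were higher and 27 lower, where the background was 2.84% and 3.14%. Without any 1 of the 3 inulin arrays no AT-rich region passed the limma threshold (655, 576 and 511 at an unadjusted p under 0.05 without inulin array 1, 2 and 3), but none of all 22574 regions passed in these fits either (background 0%). The median difference over the AT-rich regions was then 0.33, 0.31 and 0.25. With scan as a random block none passed either (536 at an unadjusted p under 0.05), again with a background of 0%, and the median difference was 0.31. Without obesity array 3 the counts were 132 higher and 2 lower, where the background was 2.29% and 0.509%.

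The share of higher calls went up with probe length over all autosomal runs outside the olfactory windows. It was 0.579% at a mean of 45 to 46 bp (3281 runs), 15.2% at 54 to 55 bp (473 runs), 20.69% at 55 to 56 bp (406 runs), 31.0% at 57 to 58 bp (197 runs) and 39.4% at 58 bp or more (193 runs). The 55-bp limit of the rule thus lay on a slope and not at a step. With the arrays on an equal spread, the share at 55 to 56 bp was 3.69% higher and 3.45% lower, and at 58 bp or more it was 10.9% higher and 5.70% lower. By number of probes, 63 of 252 AT-rich regions with 3 to 5 probes were higher, and 101 of 408 with 8 probes. Just inside the limit, chr1:17590739-17592409 differed by 0.02, chr1:60163635-60164093 by 0.36 and chr1:69996889-69997356 by -0.35. Just outside, chr2:51096056-51097775 differed by -0.21, chr4:39396026-39397764 by 0.30 and chr6:5332088-5333771 by 0.12.

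**Figure D2:**
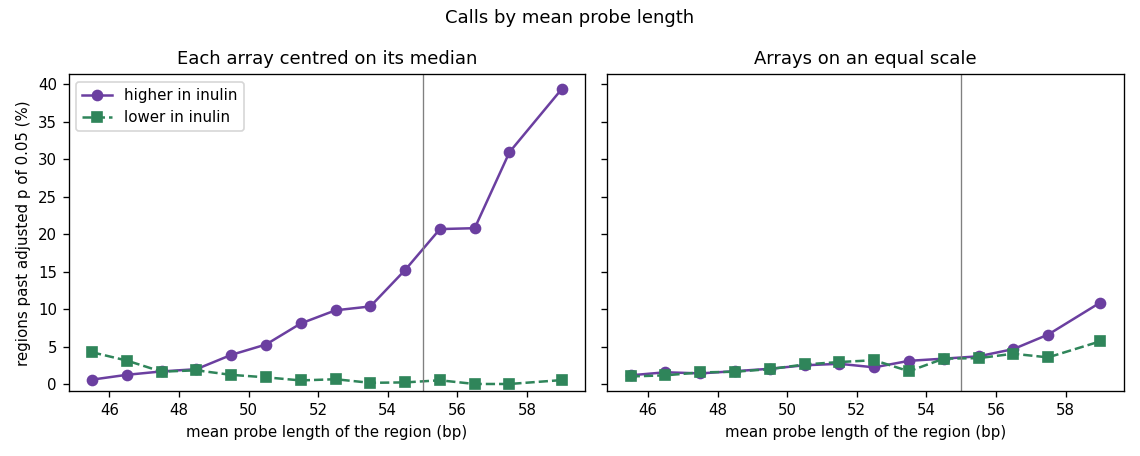
Share of autosomal runs outside the olfactory windows that passed an adjusted p of 0.05 by limma, higher (circles) or lower (squares) in inulin, against mean probe length in bp, with arrays centred only (left) and on an equal spread (right). The grey line marks the 55 bp limit; the higher share reaches 39.4% in the longest class on the left and 10.9% on the right.

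The same gradient appeared probe by probe inside the AT-rich regions. Of 7436 of their probes with a value, 945 were higher and 91 lower in inulin by limma over all probes (12.7% and 1.22%, against 5.12% and 3.08% of all probes tested). Probes of 45 to 50 bp had a median difference of 0.0040, those of 51 to 55 bp 0.10, those of 56 to 59 bp 0.22 and those of 60 bp 0.43. Of the 60-bp probes, 18.3% were higher and 0.448% lower. Probes of 60 bp in the other autosomal runs had a median difference of 0.39, with 16.4% higher. On an equal spread the medians for the AT-rich regions turned negative in the 3 shorter classes, at -0.11 for 45 to 50 bp, -0.13 for 51 to 55 bp and -0.039 for 56 to 59 bp, and stayed positive at 0.11 for 60 bp.

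Short and long probes could be set against each other within the same DNA. In 753 of the regions, at least 1 probe of 50 bp or less (1093 in all) lay beside at least 1 probe of 60 bp (2829 in all). The short probes had median log2 ratios of -0.52, -0.48 and -0.40 on the inulin arrays, against -0.47, -0.53 and -0.51 on the obesity arrays, so the groups overlapped. The 60-bp probes of the same regions had -1.07, -1.01 and -0.92 on the inulin arrays, against -1.39, -1.66 and -1.55 on the obesity arrays, with no overlap. The median difference was 0.011 for short probes, positive in 388 of 753 regions, and 0.45 for 60-bp probes, positive in 715. The 60-bp difference exceeded the short one in 650 regions (86.3%), with a median excess of 0.43. Of the short probes' spots 86.4% were well above background in the MeDIP channel, against 35.9% of the 60-bp probes' spots. By channel, the 60-bp probes differed by a median of 0.17 in MeDIP and -0.29 in input, and the short probes by -0.0091 in MeDIP and -0.0083 in input. These values are as centred, and short and long probes of the same regions were not compared on an equal spread. What part the dimness of the long probes has in their difference was not tested.

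**Figure D3:**
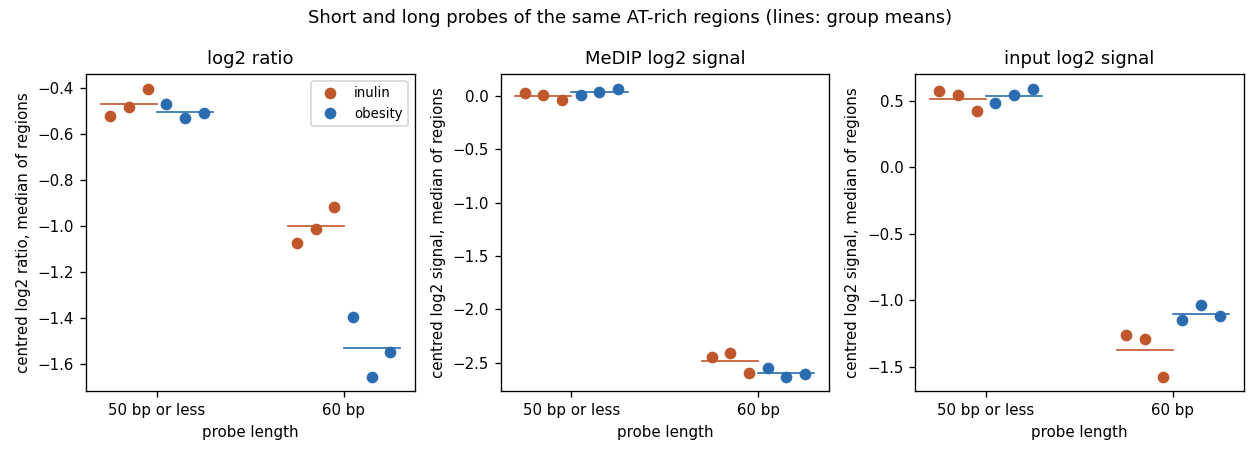
Median over 753 AT-rich regions of the centred log2 ratio (left), MeDIP signal (middle) and input signal (right) on each array, for probes of 50 bp or less and for 60-bp probes of the same regions, with lines at the group means. The groups overlap for the short probes and are apart for the 60-bp probes in the ratio, where the inulin arrays lie at -1.07 to -0.92 and the obesity arrays at -1.66 to -1.39.

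Along the regions the ratio was nearly level. In 857 regions with 6 to 9 probes, aligned on their middle and averaged in steps of 200 bp, the mean ratio stayed between -1.06 and -0.89 in inulin and between -1.41 and -1.26 in obesity. The inulin curve lay above the obesity curve in each step.

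The difference also varied with the level itself, and there the scaling decided its sign. Of the 135 AT-rich regions with a mean ratio below -2, 46 were higher and 0 lower (median difference 0.34); on an equal spread 1 was higher and 27 lower, with a median of -0.19. Of the 148 other autosomal runs in that class, 0 were higher and 42 lower on an equal spread (28.4%), with a median of -0.29. Of the 184 AT-rich regions between -0.5 and 0, 35 were higher and 0 lower (median 0.24). On an equal spread 22 of them were higher and 0 lower (median 0.17). The other autosomal runs in that class were then 1.68% higher and 1.68% lower, with a median of -0.0029. As centred, the other autosomal runs were higher in 23.0% of cases below -2 and in 3.59% between -0.5 and 0. The sign of the median difference in the AT-rich regions with the lowest ratios therefore turned with the scaling, and in the AT-rich regions near 0 it did not.

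**Figure D4:**
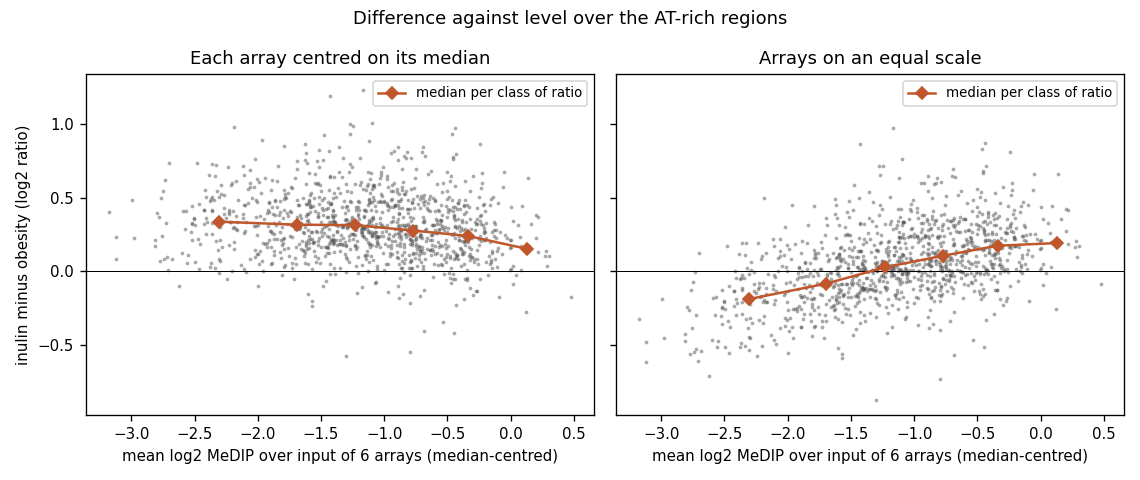
Difference in log2 ratio, inulin minus obesity, of each of the 1118 AT-rich regions against its mean log2 ratio over 6 arrays, with arrays centred only (left) and on an equal spread (right); diamonds are medians per class of ratio. On the left the medians stay positive, from 0.34 in the lowest class to 0.15 in the highest; on the right they run from -0.19 to 0.19.

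Each channel was then fitted by itself. On MeDIP signal alone none of the AT-rich regions passed the limma threshold (219 were higher and 50 lower at an unadjusted p under 0.05, where 15.2% and 5.78% of all regions were). Of all regions 0.155% were higher and 0.0975% lower past the threshold. On input alone 36 were lower and 0 higher in inulin, or 3.22%, against 0.899% lower and 1.24% higher over all regions. At an unadjusted p under 0.05, 335 were lower and 36 higher, against 8.8% and 15.6% of all regions. Among the 288 regions with a higher ratio, the median difference was 0.51 (range 0.27 to 1.24), the MeDIP signal differed by a median of 0.21 and the input signal by -0.29. Input moved more than MeDIP in 170 of the 288 and in 600 of all 1118 AT-rich regions (53.7%), against 48.7% of the other autosomal runs. Of the 288, 222 had higher MeDIP together with lower input, as did 554 of the 1118; the 288 were chosen on the ratio of these channels, so their shares are a description. With both channels well above background on all arrays, 268 of the 288 had a value, 220 kept a positive difference and 68 passed the threshold. On an equal spread 63 of the 288 were higher and 0 lower. Normexp background correction called 182 of the 288 higher, and the authors' deposited table called 20.

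The largest differences lay in regions with few spots above background. The largest was at chr17:40862844-40864432, with 7 probes, where the ratio was -0.80, -0.51 and -0.34 on the inulin arrays, against -1.69, -2.11 and -1.55 on the obesity arrays. The groups were well apart, with a difference of 1.24 (SE 0.16, adjusted p = 0.0146 by limma). Its input signal differed by -0.87 and its MeDIP signal by 0.34, and 9 of 21 MeDIP spots in each group were well above background. Over the 3 probes above background in both channels on all arrays the difference was 0.50. At chr3:59663678-59665401 the ratio was -0.88, -1.06 and -0.56 for inulin, against -1.85, -2.48 and -1.75 for obesity, a difference of 1.19 (SE 0.19, adjusted p = 0.0183 by limma). Only 5 of 24 MeDIP spots in inulin and 6 of 24 in obesity were well above background there, and the 1 probe above background throughout differed by 0.12. The next 6 differed by 0.94 to 1.01 and had no overlap between groups: chr6:132751619-132753195, chr19:11481445-11482614, chr7:66579020-66580730, chr5:109487974-109489394, chr18:37126197-37127847 and chr14:51328875-51330292. In these 6, 1 or 2 probes were above background in both channels on all arrays. Over those probes the difference was 1.03 at chr5:109487974-109489394, 0.44 at chr6:132751619-132753195 and 0.065 at chr18:37126197-37127847. It was -0.14 at chr19:11481445-11482614, -0.17 at chr7:66579020-66580730 and -0.24 at chr14:51328875-51330292, so the sign turned in 3 of the 8. The input difference was negative at all 8 regions, from -0.87 to -0.56, and the MeDIP difference was positive at all 8, from 0.070 to 0.42. The 8 were chosen on the ratio of these channels, so the signs and the lack of overlap are a description.

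Only 3 AT-rich regions were lower in inulin. At chr7:12845529-12845998 the ratio was -1.79, -1.61 and -1.37 for inulin, against -1.14, -0.87 and -1.02 for obesity, a difference of -0.58 (SE 0.12, adjusted p = 0.027 by limma). At chr9:77246779-77247802 it was -1.12, -1.07 and -1.01 for inulin, against -0.59, -0.40 and -0.56 for obesity, a difference of -0.55. At chr1:69996889-69997356, the only measured one of the 3, it was -0.65, -0.72 and -0.75 for inulin, against -0.49, -0.28 and -0.30 for obesity, a difference of -0.35. The groups did not overlap at any of the 3, while 14.2% of all regions had inulin below obesity without overlap. The 3 were chosen on this ratio, so their lack of overlap is a description. All 3 were also lower past the threshold on an equal spread, with quantile normalization and in the authors' deposited table. With loess chr1:69996889-69997356 differed by -0.021 (adjusted p = 0.888 by limma) and the other two passed. With normexp it differed by -0.088 and chr9:77246779-77247802 by -0.072, and neither passed (adjusted p = 0.279 and 0.32 by limma). With input above background chr9:77246779-77247802 differed by -0.16 and chr7:12845529-12845998 by -0.49, and neither passed (adjusted p = 0.384 and 0.055 by limma). With both channels above background they differed by -0.75, -0.16 and -0.21 in the order given, and the first, over 1 probe, passed (adjusted p = 0.0274 by limma).

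Among measured regions the largest difference was at chr14:26900480-26901850, where all 15 spots of each group were well above background in both channels. The ratio was 0.13, -0.06 and -0.07 on the inulin arrays, against -0.78, -1.11 and -0.92 on the obesity arrays, a difference of 0.93 (SE 0.10, adjusted p = 0.0137 by limma). The input signal there differed by -1.42, more than the MeDIP signal, which differed by -0.51. At chr19:60219308-60220995 it was the MeDIP signal that differed more. The ratio there was -0.36, -0.72 and -0.54 for inulin, against -1.20, -1.46 and -1.38 for obesity, a difference of 0.81 (SE 0.11, adjusted p = 0.0146 by limma), with MeDIP at 0.72 (SE 0.11) and input at -0.071 (SE 0.086). Over its 5 probes above background in both channels the difference was 0.52 and did not pass (adjusted p = 0.0647 by limma). At chr11:48960524-48961176 the difference was 0.81, and its split between channels was not resolved, with MeDIP at 0.63 (SE 0.51) and input at -0.17 (SE 0.54). The second array of each group stood below the others there in both channels. At chr10:78818236-78819809 it was 0.79, with MeDIP at 0.41 (SE 0.15) and input at -0.36 (SE 0.12). The others named by the same rule were chr14:57320234-57320738 with 0.85, chr1:58858098-58858657 with 0.81, chr14:26760727-26762097 with 0.80 and chr7:5078212-5078788 with 0.77. Groups did not overlap at any of the 8, while 20.8% of all regions had inulin above obesity without overlap. The 8 were chosen on this ratio, so their lack of overlap is a description. On an equal spread 2 of the 8 did not pass. These were chr1:58858098-58858657 with 0.45 (adjusted p = 0.13 by limma) and chr7:5078212-5078788 with 0.60 (adjusted p = 0.066 by limma). The call at chr7:5078212-5078788 changed in 12 of the alternative settings. Over their probes above background in both channels, chr14:57320234-57320738 differed by 0.078 and chr1:58858098-58858657 by -0.024, and neither passed (adjusted p = 0.673 and 0.921 by limma). Nor did chr10:78818236-78819809 with 0.42 and chr7:5078212-5078788 with 0.67 (adjusted p = 0.0715 and 0.0663 by limma). With that filter chr14:26900480-26901850, chr11:48960524-48961176 and chr14:26760727-26762097 passed.

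The measured region on chromosome 14 had companions, which were examined after their values were seen. Of 13 neighbouring runs, 10 had input lower by more than 0.5 in inulin on the log2 scale, with differences of -1.55 to -0.51. These 10 lay between 26746165 and 27082164 (mm9), and in all 10 the groups did not overlap in input. The 10 were picked on this same input difference, so the lack of overlap is a description. The share of all regions without overlap in input was not taken. Of these, 3 were AT-rich regions: chr14:26760727-26762097, chr14:26900480-26901850 and chr14:27040090-27041461. Each had 5 probes at the same spacing within 1 bp, and their starts lay 139753 and 139610 bp apart. Other runs of the stretch recurred at a similar distance. Those with 10 probes and a mean length of 47 bp started at 26746165, 26885918 and 27025534, or 139753 and 139616 bp apart. The runs are therefore not counted as separate loci. Whether they are near-identical copies whose probes share signal was not tested. At chr14:27040090-27041461 the input signal was -0.24, -0.10 and -0.22 on the inulin arrays, against 1.43, 1.61 and 1.07 on the obesity arrays. The input difference at the 3 regions was -1.13, -1.42 and -1.55, and the last 2 passed the limma threshold on input alone (adjusted p = 0.00924 and 0.0212). The ratio differed by 0.80, 0.93 and 0.76, and each was also higher past the threshold on an equal spread, with normexp, with both channels above background and in the authors' deposited table. Input DNA is not enriched for methylation, and whether the copy number of this stretch differs between the groups was not tested.

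**Figure D5:**
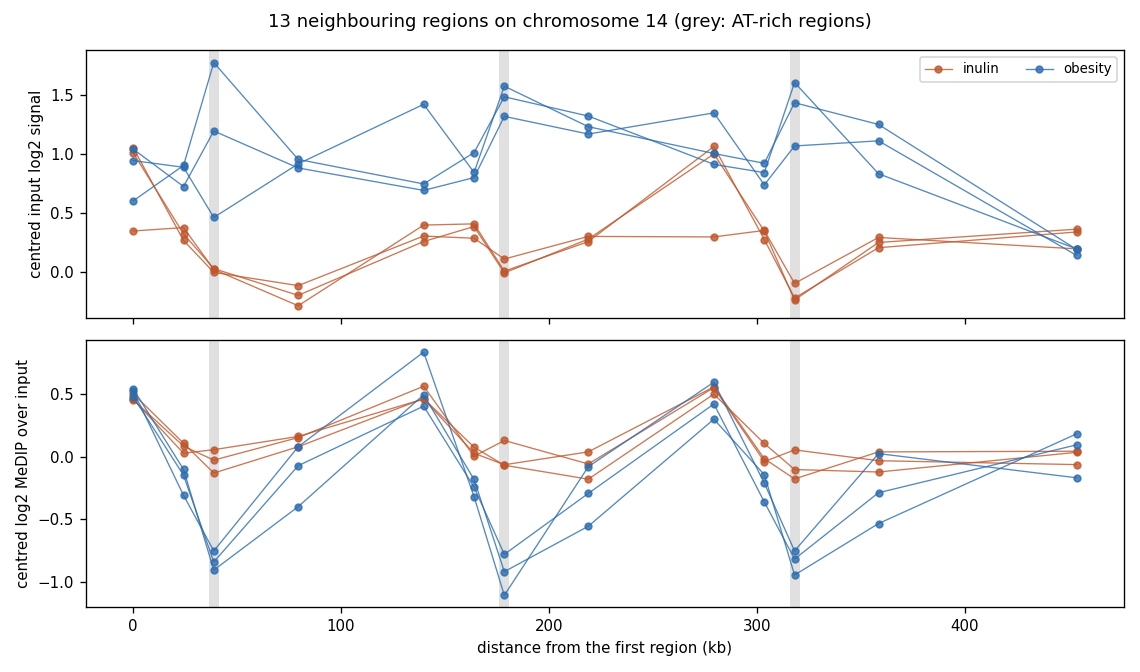
Centred log2 input signal (top) and log2 ratio of MeDIP over input (bottom) of 13 neighbouring runs on chromosome 14 on each of the 6 arrays, against distance from the first run in kb; grey marks the 3 AT-rich regions. At these 3 the input of all inulin arrays lies between -0.24 and 0.11, below all obesity arrays, which reach 1.77.

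None of the 6 highest or 6 lowest measured regions by ratio passed the threshold with arrays centred only. The 6 measured regions with the highest ratio were chr13:27701984-27703736, chr1:175144442-175146155, chr13:81079311-81079971, chr7:122944624-122946397, chr13:83641733-83643352 and chr3:10352057-10352524. At the first the ratio was 0.36, 0.33 and 0.47 for inulin, against 0.85, 0.19 and 0.65 for obesity, and the groups overlapped. Differences at the 6 ran from -0.18 to 0.14 and none passed the threshold. The 6 measured regions with the lowest ratio had bright input, from 1.38 to 3.34 above the array median on the log2 scale. The lowest, chr5:94100191-94101693, had a ratio of -3.04, -2.96 and -2.92 for inulin, against -3.21, -3.68 and -3.25 for obesity. Then came chr4:146512936-146514527, chr7:20685501-20686919, chr7:8638626-8640319, chr7:7289705-7291328 and chr7:9964479-9966274. Differences at these 6 ran from 0.08 to 0.40 and none passed as centred. On an equal spread they ran from -0.62 to -0.33, and all 6 passed as lower. They were negative as well with quantile normalization, from -0.34 to -0.023, and in the authors' deposited table, from -0.18 to -0.054, where none passed. Other alternatives gave higher calls: chr7:8638626-8640319 with loess (0.36) and normexp (0.23), chr7:20685501-20686919 with loess (0.31), and chr7:9964479-9966274 with normexp (0.19) and with both channels above background (0.38).

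Higher calls occurred in each of the 5 fullest windows, in shares on both sides of the 25.8% over all AT-rich regions. The chr6:132000000-134000000 window had 4 of its 25 AT-rich regions higher, with a median difference of 0.34 and 24 of 25 positive. In chr17:20000000-22000000 it was 6 of 23 (median 0.45), in chr14:50000000-52000000 8 of 21 (median 0.41), in chr6:56000000-58000000 4 of 20 (median 0.33) and in chr13:26000000-28000000 1 of 21 (median 0.18). None of the 5 windows held a lower call as centred. On an equal spread the higher calls in these windows, in the same order, numbered 2, 2, 3, 0 and 0, with 1 lower call in chr14:50000000-52000000 and a median difference of -0.086 in chr13:26000000-28000000. Over all 22574 regions the shares were 5.61% higher as centred and 2.31% higher on an equal spread. By chromosome the higher share of AT-rich regions was 46.4% on chromosome 19 (13 of 28) and 41.7% on chromosome 15 (5 of 12), against 10.3% on chromosome 9 (3 of 29). These shares were not compared by a test, since regions of 1 window share their arrays and may share sequence.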

How the data were processed

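The 6 arrays, 3 inulin and 3 obesity, were scanned and quantified by the authors with Feature Extraction 11.0.1.1 and protocol ChIP_1100_Jul11, per the file headers, with probe positions in mm9. Per the file headers, the deposited processed intensity is background-subtracted and dye-normalized by a linear factor. The deposited median spot intensity and its local background, not yet corrected by the authors, were used for normexp (offset 50). The authors' deposited table holds 1 score per probe and array, whose log base, scale and centring are not stated. Log2 ratios of Cy5 (MeDIP) over Cy3 (input) were computed from the deposited intensities without spots marked as outliers (1901 to 4863 an array) and centred on each array's median. An equal spread means each array scaled so that its interquartile range equals the mean of the 6 arrays. A region's value is the mean of its probes.

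Regions and probes with at least 2 arrays per group were tested in limma 3.58.1 (R 4.3.3), two-sided, with Benjamini-Hochberg adjustment over all regions or all probes. The regions named are the 8 with the largest differences past 0.05 in each direction, over all and over measured AT-rich regions, the 6 highest and 6 lowest measured ratios, 3 on each side of 55 bp and the 5 fullest windows. The chromosome 14 stretch was chosen after its values were seen. Members, lists and tests were chosen with earlier results of these data known. The number of arrays limits precision. The fit was tested on simulated data. Same-numbered arrays correlated at -0.14, 0.28 and 0.33 in their deviations from group means over 22572 regions. Arrays of different number correlated at -0.38 to 0.22. Deviations of 3 arrays from their own mean are tied to each other, so these values cannot decide on a pairing. The labels do not give the numbers as pairs, and they were not taken as pairs. Arrays with the same header time were taken as 1 scan, in place of the slide, which was not used here. Gene names and region sequences of mm9 were not used here. Alternatives were other scalings, filters on dim probes, region limits, blocks and each array left out.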

Additional observations from a re-analysis of the deposited data

How the results depend on the processing

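Counts are AT-rich regions past an adjusted p of 0.05 by limma, against 288 higher, 3 lower and a median difference of 0.30 as reported. On an equal spread there were 64 higher and 45 lower (median 0.035), with quantile normalization 45 and 9 (0.065), 21 and 13 with the authors' deposited table (0.012), with both channels above background 105 and 27 (0.13), and with input above background 181 higher. Normexp gave 1 lower (0.13), where 3.96% of all regions were lower. The median of the probes gave 128 higher, where 2.09% of all regions were higher. A gap of 300 bp gave 5 of 1636 lower, and the share over all its regions was not taken. A mean probe length of 56 bp or more gave 1 of 712 lower, where 1.81% of all regions were lower. Keeping the olfactory windows gave 472 of 1714 higher, where 5.61% of all regions were higher. Scan as a random block gave 0 and 0 (536 at an unadjusted p under 0.05; median 0.31). Leaving out 1 array gave 0 to 292 higher, 0 to 5 lower and a median of 0.25 to 0.35; each inulin array left out gave 0 and 0.

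With the replicate number as a block, 433 were higher and 4 lower, and on input alone 0 passed (357 at an unadjusted p under 0.05). The share over all regions was not taken for this block. The labels do not give the numbers as pairs, and the check of the numbers could not decide it. On MeDIP alone, 0 as reported, an equal spread gave 3 and leaving out 1 array 0 to 3. On input alone, 36 as reported, an equal spread gave 69, scan as a random block 12 and leaving out 1 array 0 to 5. Of single probes, 1036 as reported, 477 passed on an equal spread, 1642 with normexp, 281 by the authors' deposited values, 35 with scan as a random block and 93 to 999 with 1 array left out.

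Among the 19 named regions past the threshold as reported, the sign turned at 5. With both channels above background it did so at chr19:11481445-11482614 (-0.14), chr7:66579020-66580730 (-0.17), chr14:51328875-51330292 (-0.24) and chr1:58858098-58858657 (-0.024), and in the authors' deposited table at chr14:57320234-57320738 (-0.032). Of the 19, 17 stayed past it on an equal spread, 18 with loess, 16 with quantile normalization, 15 with normexp, 13 with input above background, 11 with the median of the probes, 8 in the authors' deposited table, 7 with both channels above background and 0 with scan as a random block. Signal over background limits these regions: 536 of 1118 were not measured. The causes of these changes were not tested.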

Other observations

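Input signal was lower in inulin, past the limma threshold on input alone, at 36 AT-rich regions (3.22%, against 0.899% of all regions). Of these, 20 were among the 288 with a higher ratio, where 25.8% of the AT-rich regions and 5.61% of all regions had one. Input is the denominator of the ratio, so this overlap is a description. Outside chromosome 14, the largest input differences among the 36 were at chr4:51229395-51229901 and chr7:13269875-13271352, which were chosen after their values were seen. At chr4:51229395-51229901, where all 3 probes are 60 bp, the centred input signal was -1.65, -1.57 and -2.09 on the inulin arrays, against -0.83, -0.43 and -0.70 on the obesity arrays, a difference of -1.12 (adjusted p = 0.0398 by limma). At chr7:13269875-13271352 it was -1.23, -1.41 and -1.54 for inulin, against -0.39, -0.034 and -0.64 for obesity, a difference of -1.04 (adjusted p = 0.0418 by limma). The ratio of MeDIP over input differed by 0.72 and 0.35 at these regions and did not pass (adjusted p = 0.0508 and 0.197 by limma). At chr8:46346919-46347408 input differed by -0.76 and MeDIP by -0.91, and the ratio by -0.13 (adjusted p = 0.644 by limma).

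In the chr7:8000000-10000000 window, also chosen after its values were seen, 13 of 14 runs were AT-rich, all 13 were measured, and their median ratios were -2.40, -2.43 and -2.22 on the inulin arrays, against -2.55, -2.76 and -2.80 on the obesity arrays. There 4 of the 13 were higher and 0 lower as centred, with a median difference of 0.33, where 5.61% and 1.81% of all regions were called; on an equal spread 0 were higher and 3 lower, with a median of -0.24, where 2.31% and 2.13% of all regions were called. Their median input level was 2.06 above the array median on the log2 scale.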
